A study of Homo sapiens with 9 samples.

Results

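The genes described here are 39 members of the Notch pathway, measured by RNA sequencing in a carcinoma cell line before and during exposure to an EZH2 inhibitor. They comprise 4 receptors, 6 ligands and ligand-like genes, 5 genes of the nuclear complex, 10 genes listed as targets (9 of them HES or HEY genes), 4 glycosyltransferases, 5 proteases and 5 genes of trafficking and ubiquitin ligation. They were chosen by symbol as a pathway list, and all 39 stood among the 35762 gene symbols of the estimated count table. A filter on low counts left 15345 genes for testing, of which 38 were Notch genes. DTX1, a ubiquitin ligase gene, did not pass it, with 0 counts in all 3 libraries of day 0, 2 pooled counts on day 3 and 3 pooled counts on day 6.

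TYUC-1 is a cell line from a neuroendocrine esophageal carcinoma, grown in suspension in DMEM/F12 with serum. EPZ-6438 (tazemetostat) inhibits EZH2, the methyltransferase of Polycomb repressive complex 2, and the protocol names a dose of 2 uM or DMSO. The 3 groups hold 3 biological replicates each of TYUC-1 cells at 0 days of EPZ-6438, at 3 days and at 6 days. All 9 libraries carry the inhibitor as their treatment label, and whether day 0 cells received DMSO is not stated. No vehicle library of day 3 or day 6 was analysed, so exposure and days in culture cannot be told apart in any comparison. All libraries come from 1 cell line.

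Notch receptors are cell surface proteins that are cut by ADAM proteases and then by gamma-secretase when a Delta or Jagged ligand on a neighbouring cell pulls on them. The freed intracellular domain binds the DNA-binding protein RBPJ and a Mastermind co-activator and switches on target genes, several HES and HEY genes among them. The HES and HEY families encode basic helix-loop-helix repressors. In neural and neuroendocrine tissue this pathway is known for holding back differentiation, and DLL3 is a ligand known to act inside the cell and to be frequent on neuroendocrine carcinomas.

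The libraries held between 21638874 and 31235055 estimated counts, so that 3 counts, the most that a count of 0 allows, came to 0.098 to 0.141 CPM (counts scaled to a common library size by TMM). Of the neuroendocrine markers CHGA was at 0 in all 9 libraries, and SYP (4.62 to 6.83 CPM), INSM1 (3.51 to 5.77 CPM) and NEUROD1 (1.82 to 3.71 CPM) were low. UCHL1 (114 to 189 CPM) and ENO2 (352 to 513 CPM) were well expressed, so the labelled cell type was matched by part of its markers. Day 0 replicate 2 stood apart: over 14929 genes its deviation from the day 0 mean ranked with exon length (rho -0.327) and GC content (rho -0.238), so that longer transcripts tended to be lower in it, with many exceptions. Within day 6, replicates 2 and 3 deviated with GC content in opposite directions (rho -0.533 and 0.541). Results that rest on these libraries are given with the values concerned.

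Upstream sequence of HES and HEY genes is shown here because these families include known targets of the pathway. Whether each gene is a direct target in these cells was not tested. RBPJ is known to bind the letters TGGGAA, with GTGGGAA as a longer form. The 33 Notch genes with an entry in the RefSeq promoter table (GRCh38.p14) were searched over 250 bases before the start, on both strands, for both forms and for the letter classes that HES and HEY proteins are known to bind, CACNAG (the N-box), CACGTG and also CACGCG. The longer RBPJ form contains the shorter, so each of its matches counts for both, and matches of the other motifs can share their end letters with a neighbouring match. The windows below run 5′ to 3′ on the gene's strand, in lower case, with matches to these motifs in capitals, and the 5 long ones hold no GENCODE exon base of their gene. HES1 is shown from chr3:194135898-194136144 (plus strand), HES5 from chr1:2530264-2530513 (minus strand), HEY2 from chr6:125749382-125749579 (plus strand), HES2 from chr1:6419920-6420169 (minus strand) and HES7 from chr17:8124107-8124356 (minus strand). For HEYL (chr1:39639803-39639832, minus strand) and HES4 (chr1:1000156-1000185, minus strand) only 30 bases around a match are given, of which 30 in HEYL and 17 in HES4 lie in a GENCODE exon of the gene. The HES2 and HEY2 windows lie in introns of longer GENCODE transcripts of these genes, since the RefSeq start used here is not the outermost one.
HES1: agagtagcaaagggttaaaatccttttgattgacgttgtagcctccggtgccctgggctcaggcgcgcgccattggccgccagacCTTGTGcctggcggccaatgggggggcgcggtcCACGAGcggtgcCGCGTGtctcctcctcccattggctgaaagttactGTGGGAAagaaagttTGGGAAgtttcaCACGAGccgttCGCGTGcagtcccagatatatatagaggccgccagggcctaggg
HES5: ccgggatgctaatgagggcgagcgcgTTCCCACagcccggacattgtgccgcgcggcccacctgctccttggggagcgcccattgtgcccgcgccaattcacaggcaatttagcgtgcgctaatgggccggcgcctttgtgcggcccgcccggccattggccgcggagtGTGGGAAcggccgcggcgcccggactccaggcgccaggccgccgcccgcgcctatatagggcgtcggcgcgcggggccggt
HEY2: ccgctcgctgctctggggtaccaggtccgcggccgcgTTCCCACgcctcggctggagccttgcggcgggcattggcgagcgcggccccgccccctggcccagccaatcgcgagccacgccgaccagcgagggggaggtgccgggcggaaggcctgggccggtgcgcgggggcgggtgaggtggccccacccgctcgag
HEYL: cgcctagggccTTCCCACggctcggcggcg
HES4: ctggggcgagtGTGGGAAagaatgcggagc
HES2: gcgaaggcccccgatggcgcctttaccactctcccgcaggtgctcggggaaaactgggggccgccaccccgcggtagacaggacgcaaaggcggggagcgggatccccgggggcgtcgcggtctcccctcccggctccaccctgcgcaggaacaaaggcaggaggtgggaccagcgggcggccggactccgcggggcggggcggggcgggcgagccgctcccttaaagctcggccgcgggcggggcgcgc
HES7: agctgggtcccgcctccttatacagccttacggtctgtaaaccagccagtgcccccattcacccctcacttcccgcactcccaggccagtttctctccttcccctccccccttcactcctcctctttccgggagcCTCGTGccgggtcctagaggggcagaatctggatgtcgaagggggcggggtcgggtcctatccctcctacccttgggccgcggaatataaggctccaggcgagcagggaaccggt

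The RBPJ letters were present in HES1, HES4, HES5, HEY2 and HEYL and not in the HES2, HES6 and HES7 windows. GTGGGAA was found in 5 of 8 HES and HEY promoters (62.5%), in 5 of all 33 Notch gene promoters (15.2%) and in 5.46% of 27305 promoters, counting for each gene the first window listed. The shorter TGGGAA was found in the same 5 Notch promoters (15.2%), against 21.1% of all promoters. Among 6 further windows of Notch genes that were not counted, an RBPJ window held GTGGGAA at 2 places and an LFNG window held TGGGAA. In HES1 it lay 84 and 70 bases before the start, where a pair of RBPJ sites is known, in HES5 at 224 and 80 bases, in HEYL at 178 and 99 bases, in HES4 at 76 bases and in HEY2 at 213 bases. The other classes were no more frequent in Notch promoters than in all (CACNAG 27.3% and 32%, CACGTG 3.03% and 6.49%) except CACGCG (15.2% and 9.62%), which was found in 14.9% of promoters of tested genes. The median observed-over-expected CpG ratio was 0.897 in Notch promoters, 0.809 in promoters of tested genes and 0.556 in all promoters. A match describes letters in a window only.

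Against day 0, most of the Notch genes that passed the test were higher, HES, HEY and ligand genes among them, and no protease gene passed. On day 3, 15 of the 38 tested Notch genes were higher than on day 0 and 0 were lower (edgeR quasi-likelihood test, Benjamini-Hochberg adjusted p under 0.05 over all 15345 genes). This is 39.5% of them, beside 40.6% of all genes tested (22.5% higher and 18.1% lower), so the share called was near the background while the direction was all upward. At an unadjusted p under 0.05, 1 Notch gene (MAML1) was lower on day 3, and DESeq2 and limma-voom called 0 lower. On day 6, 16 were higher and 2 lower than on day 0 (47.4%), beside 54.6% of all genes (28.9% higher and 25.7% lower). Day 6 against day 3 gave 7 higher and 1 lower (21.1%), beside 16.3% of all genes (11.5% higher and 4.76% lower). All 3 later libraries lay above all 3 of day 0 in 18 Notch genes on day 3 and below them in 5, beside 28.8% and 25% of all genes (53.8% in all). On day 6 they lay above in 18 and below in 3, beside 31.2% and 27.5% (58.7%), and day 6 lay above day 3 in 12 and below it in 6, beside 22.8% and 20.7% (43.5%). The median log2 fold change of the Notch genes was 0.17, 0.22 and 0.07 in these 3 comparisons, beside 0.01, 0.01 and -0.00 over all genes. The comparisons with day 0 share its 3 libraries. Scaling by library size only moved the median of all genes to 0.09 on day 3 and 0.13 on day 6, raised the share of higher calls among all genes to 69.2% (55.3% with TMM) and 66.6% (53%), and gave 21 higher and 0 lower Notch genes on day 6. Removing each library's trend with GC content and length gave 11 higher and 5 lower Notch genes on day 3. On day 6 it gave 13 higher and 7 lower. These were 42.1% and 52.6% of the Notch genes, beside 39.1% and 56.9% of all genes. Of the calls, 68.8% and 65% were higher among Notch genes, beside 57.3% and 54.2% among all genes. The median log2 fold change of the Notch genes was then 0.006 on day 3 and 0.058 on day 6. Over all genes it was 0.031 and 0.039, so the upward shift of the median was no longer seen on day 3 and was small on day 6. The trend was fitted to deviations from the mean of all libraries, not of each day. Its removal can therefore also take out a difference between days that goes with GC content or length.

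Low-expressed genes held part of these rises. Among the 10 tested Notch genes with a mean under 5 CPM, 6 were higher on day 3 and 7 on day 6, beside 30.4% and 45.1% of all genes at that level. A gene silent on day 0 enters the test only if it is counted later. Among the 28 Notch genes at 5 CPM or more, 9 were higher and 0 lower on day 3, beside 19.3% higher and 24.1% lower among all genes at that level. On day 6, 9 of the 28 were higher and 2 lower, beside 22.7% and 34.2% of all genes. The HES and HEY genes had 6 of 9 higher on day 3, 6 of 9 on day 6, and 5 of 9 higher on day 6 than on day 3. Of all genes tested, 22.5%, 28.9% and 11.5% were higher in these comparisons. None of the HES and HEY genes was lower in any of the 3, and none was lower at an unadjusted p under 0.05. DESeq2 called 5, 6 and 4 of them higher and none lower. In bulk RNA, more cells with a transcript and more transcript per cell cannot be told apart, for these and all genes below.

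**Figure D1:**
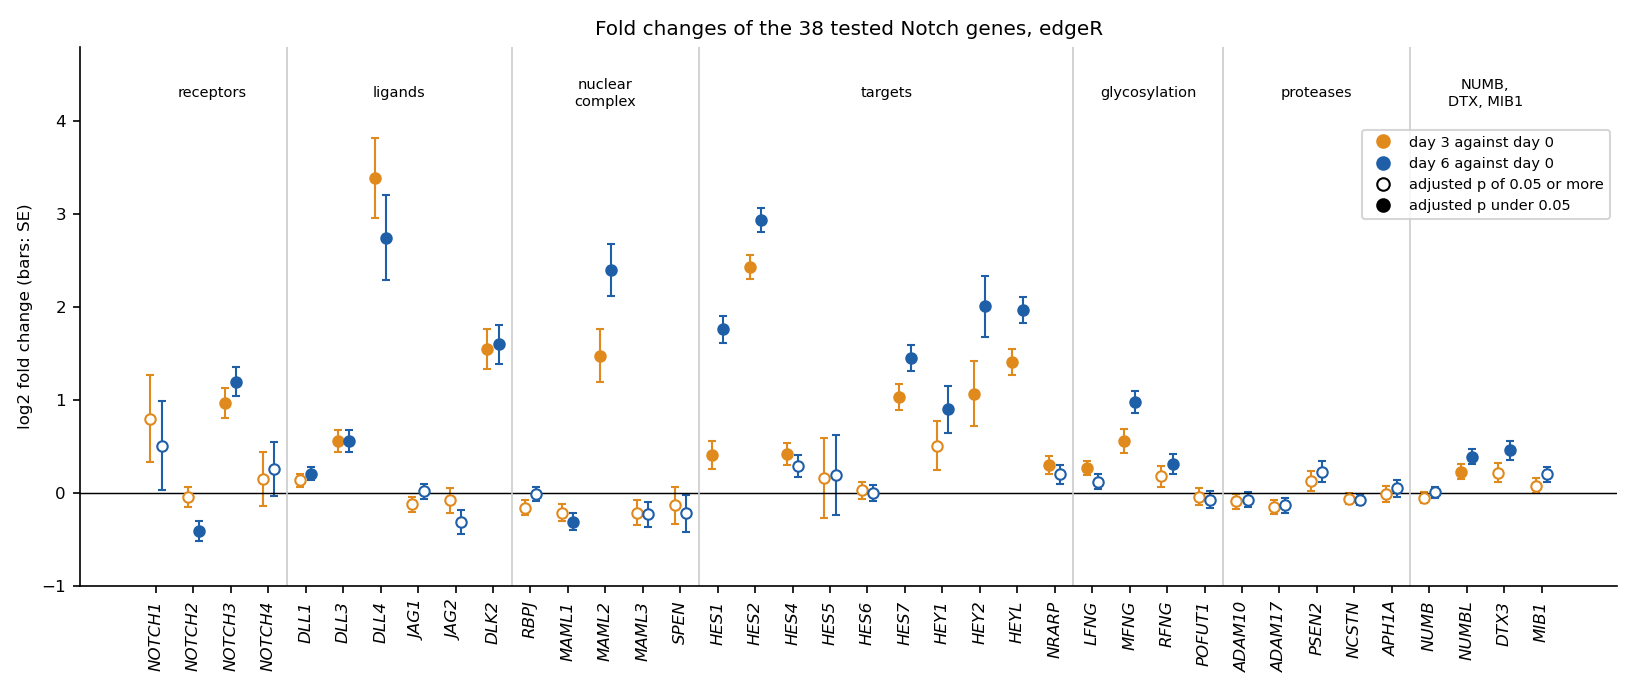
Log2 fold change (y axis, edgeR, bars are standard errors) of the 38 tested Notch genes (x axis, grouped by role) on day 3 (orange) and day 6 (blue) against day 0, n = 3 libraries per day. Filled points passed an adjusted p under 0.05: HES2 reached 2.43 on day 3 and 2.94 on day 6, while the 5 protease genes are drawn as open circles on both days.

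Of the 4 receptors, NOTCH2 supplied nearly all receptor RNA and fell by day 6, and NOTCH3 rose on both days from a low level. NOTCH2 (chr1:119911553-120069626, minus strand, GRCh38, GENCODE release 29) had 372, 266 and 376 CPM on day 0, 326, 334 and 329 CPM on day 3, and 258, 247 and 260.4 CPM on day 6. All 3 day 6 libraries lay below those of day 0 and day 3, while day 0 replicate 2 lay far below the other day 0 libraries. NOTCH2 was lower on day 6 than on day 0 (log2 -0.41, SE 0.11, adjusted p = 0.00971, edgeR) and than on day 3 (-0.37, SE 0.11, adjusted p = 0.0454), and did not pass on day 3 against day 0 (-0.04, SE 0.11). The day 6 call against day 0 was lost with scaling by library size only (adjusted p = 0.0782), and the call against day 3 was lost in 8 of 19 alternatives, among them without any library of day 3 or day 6 in turn (up to 0.141). Without day 0 replicate 2, NOTCH2 was lower already on day 3 (-0.19, adjusted p = 0.01). NOTCH2 shares near-identical sequence with the NOTCH2NL genes, so its counts are uncertain.

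NOTCH3 had 1.70, 1.91 and 1.74 CPM on day 0, 3.80, 3.15 and 3.57 CPM on day 3, and 3.80, 3.97 and 4.52 CPM on day 6. All libraries of day 3 and day 6 lay above those of day 0, and those of day 3 and day 6 overlapped. NOTCH3 rose 1.96-fold on day 3 (log2 0.97, SE 0.16, adjusted p = 0.000654, edgeR) and 2.29-fold on day 6 (log2 1.20, SE 0.16, adjusted p = 6.02e-05), and both calls held in all 18 alternatives that tested it. NOTCH1 had 2.12, 0.255 and 1.08 CPM on day 0, 1.57, 2.31 and 2.35 CPM on day 3, and 2.05, 1.38 and 1.64 CPM on day 6. In day 0 replicate 2 NOTCH1 stood at 15.9% of the mean of the other day 0 libraries, and the days overlapped. It did not pass (log2 0.80, SE 0.47, adjusted p = 0.198 on day 3, and 0.51, SE 0.48, adjusted p = 0.392 on day 6, edgeR), though it was called higher without day 0 replicate 1 (0.0146 and 0.0262), with 0.594 and 0.918 at the other end of the alternatives. NOTCH4 had 0.751, 1.66 and 1.13 CPM on day 0, 1.16, 1.20 and 1.52 CPM on day 3, and 1.41, 1.47 and 1.29 CPM on day 6. Its days overlapped, and its log2 change by day 6 was 0.26 (95% interval -0.37 to 0.88).

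Levels were compared between receptors in CPM per kb of merged exon length. NOTCH2 made up 97.6% of the summed receptor level on day 0, 96.2% on day 3 and 94.9% on day 6 (means of 3 libraries). NOTCH3 made up 0.989%, 1.90% and 2.83% on the same days. The summed receptor level per kb was 16.2 to 17.1 in the day 6 libraries, against 17.0 to 23.9 in those of day 0.

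Among the ligands, JAG2 and JAG1 were not called in any comparison and DLL1 rose slightly by day 6. DLL3, DLL4 and DLK2 rose by day 3 and were not called different between day 3 and day 6. DLL3 had 9.86, 12.2 and 10.2 CPM on day 0, 13.8, 17.1 and 16.6 CPM on day 3, and 17, 15.2 and 15.2 CPM on day 6. Every later library lay above all of day 0. DLL3 (chr19:39498895-39508481, plus strand), the ligand gene linked to neuroendocrine carcinoma, rose 1.47-fold on both days (log2 0.56, SE 0.12, adjusted p = 0.0027 on day 3 and 0.00153 on day 6, edgeR). Both calls were lost when GC and length trends were removed (0.156 and 0.104), and DLL3 stood in day 0 replicate 2 at 122% of the other day 0 libraries.

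DLL4 had 0.0327, 0.128 and 0.0940 CPM on day 0, 0.969, 0.870 and 0.826 CPM on day 3, and 0.471, 0.690 and 0.560 CPM on day 6. All day 0 libraries were near the detection limit, and every later library lay above them, with day 3 above day 6. DLL4 (chr15:40929333-40939073, plus strand), a Delta ligand best known from sprouting vessels, had 71 pooled counts on day 3 and 43 on day 6, against 6 on day 0, ratios of 11.2 (exact 95% Poisson interval 4.90 to 31.5) and 7.10 (3.01 to 20.4), which cover counting error only. It rose in edgeR (adjusted p = 0.000111 and 0.000325) and held both calls in all 18 alternatives. DLK2 had 0.915, 1.11 and 0.705 CPM on day 0, 2.65, 2.64 and 2.78 CPM on day 3, and 3.03, 2.41 and 2.89 CPM on day 6. No later library overlapped with day 0. DLK2, which encodes a membrane protein of the Delta-like family lacking the receptor-binding DSL domain, rose 2.94-fold on day 3 and 3.04-fold on day 6 (log2 1.55 and 1.60, SE 0.21 each, adjusted p = 0.000166 and 5.10e-05, edgeR).

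JAG2 had 223, 151 and 212 CPM on day 0, 185, 192 and 178 CPM on day 3, and 159.9, 143 and 169 CPM on day 6. The low value of day 0 replicate 2 made day 0 overlap with both later days. JAG2, a Jagged ligand, did not pass on day 6 against day 0 (log2 -0.31, SE 0.13, adjusted p = 0.0541, edgeR). In 7 of 19 alternatives it was called lower, with 0.249 at the other end. Without day 0 replicate 2 it was lower by -0.48 (adjusted p = 4.99e-05, edgeR), and with GC and length trends removed by -0.80 (adjusted p = 9.9e-06, edgeR). DLL1 had 62.9, 58.3 and 64.8 CPM on day 0, 71.1, 67.6 and 66 CPM on day 3, and 68.9, 70.2 and 75.5 CPM on day 6. All day 6 libraries lay above day 0, by a small margin. DLL1 rose on day 6 (log2 0.21, SE 0.07, adjusted p = 0.0308, edgeR), a call lost in 7 of 19 alternatives, among them without day 0 replicate 1, day 3 replicate 2 or 3, or day 6 replicate 1 or 3 (up to 0.119). With GC and length trends removed its direction turned to lower on both days. JAG1 had 20.7, 19 and 21.5 CPM on day 0, 18.8, 18.5 and 18.8 CPM on day 3, and 20.3, 20.1 and 21.5 CPM on day 6. All day 3 libraries lay just below day 0, and day 6 overlapped with it. JAG1 was not called on any day, with a day 6 change of 0.02 (95% interval -0.16 to 0.19).

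Per kb, JAG2 made up 54.2% of the summed ligand level on day 0, 49.2% on day 3 and 44.1% on day 6. DLL1 followed with 32%, 33.4% and 37.0%, and DLL3 with 7.45%, 10.2% and 10.8%, so the order of the 3 largest was the same on all days. DLL4 stayed the smallest at 0.0422%, 0.402% and 0.276%. NOTCH4, DLL1 and DLK2 overlap other genes of the table, and whether counting used strand is not stated.

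**Figure D2:**
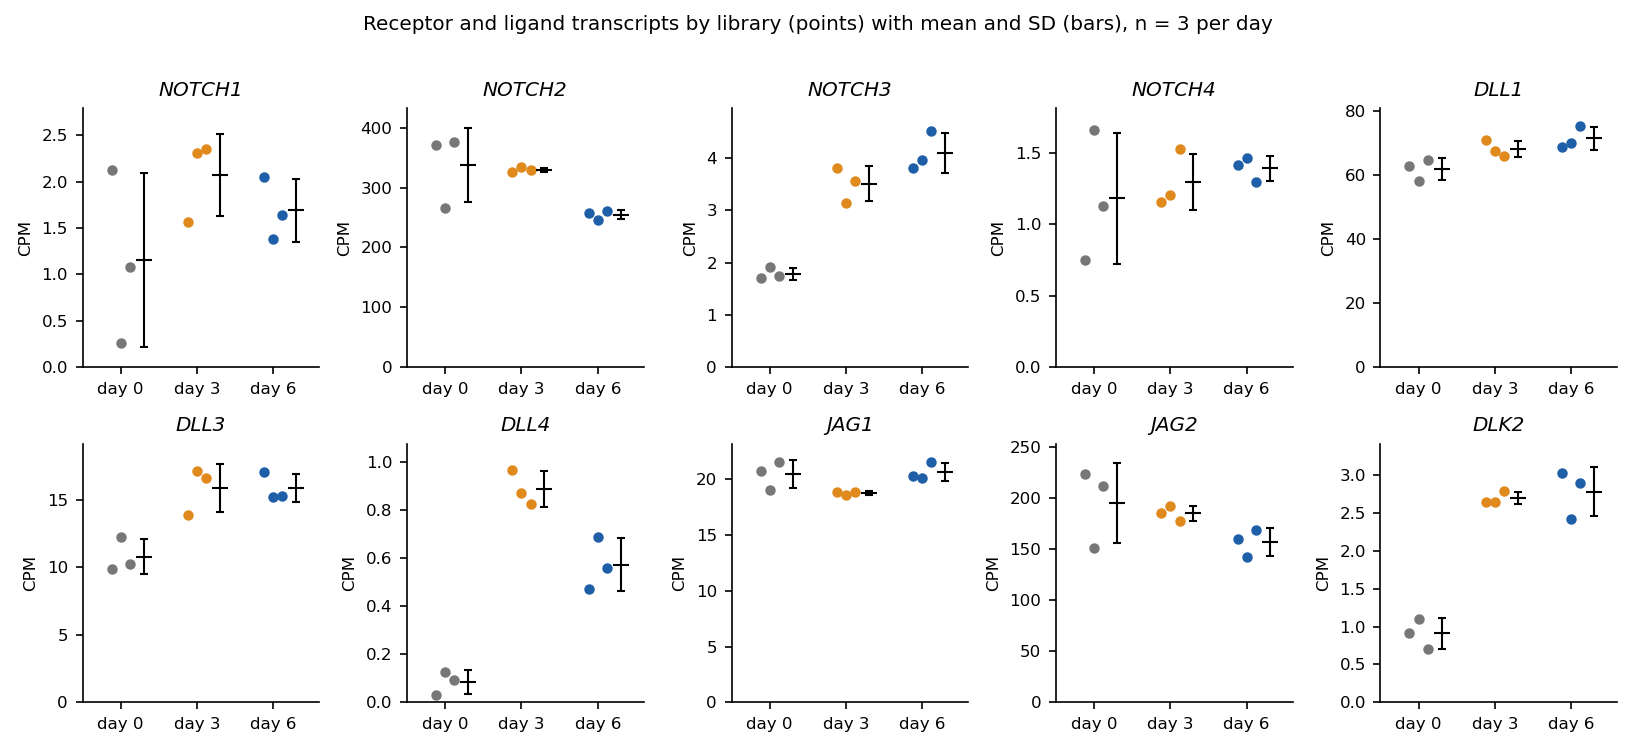
CPM (y axes, from 0) of 4 receptor and 6 ligand genes in every library on days 0, 3 and 6 (points), with mean and SD (bars, n = 3 per day). NOTCH2 lies between 247 and 260.4 CPM on day 6, below day 3, NOTCH3, DLL3, DLL4 and DLK2 lie above day 0 in all later libraries, and day 0 replicate 2 is the lowest of the day 0 libraries in NOTCH1, NOTCH2 and JAG2.

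In the nuclear complex, MAML2 rose on both days and MAML1 fell by day 6. MAML2 had 0.751, 0.553 and 0.282 CPM on day 0, 1.75, 1.41 and 1.44 CPM on day 3, and 3.20, 2.72 and 2.80 CPM on day 6. Each day lay wholly above the one before it. MAML2 (chr11:95976598-96343180, minus strand), a Mastermind co-activator gene, rose 2.79-fold on day 3 (log2 1.48, SE 0.29, adjusted p = 0.00214, edgeR) and 5.29-fold on day 6 (log2 2.40, SE 0.28, adjusted p = 2.29e-05), and its day 6 level exceeded that of day 3 (0.92, SE 0.25, adjusted p = 0.0233). The last call was lost without day 3 replicate 2 or 3 or without any day 6 library (up to 0.102). MAML1 had 58.6, 49 and 62.8 CPM on day 0, 49.8, 48.8 and 48.2 CPM on day 3, and 46.6, 43.6 and 47.5 CPM on day 6. All day 6 libraries lay below day 0, and day 3 overlapped with day 0. MAML1 was lower on day 6 (log2 -0.31, SE 0.09, adjusted p = 0.0126, edgeR). That call was lost with scaling by library size only (0.14), with a minimum of 5 CPM (0.0696) and without day 0 replicate 3 (0.0526). Per kb, MAML2 made up 0.38% of the summed MAML level on day 0, 1.22% on day 3 and 2.39% on day 6, with MAML1 and MAML3 near equal shares.

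RBPJ, the DNA-binding core of the complex, ranged from 147 to 182 CPM and was not called (day 6 against day 0 -0.01, SE 0.08). SPEN, which encodes a co-repressor recruited by RBPJ, and MAML3 were not called either, but both were depleted in day 0 replicate 2, at 50.1% and 69% of the other day 0 libraries. Without that library, 6 of the 37 tested Notch genes were called lower than day 0 on both days. Of all 15620 genes tested in that fit, 3370 were lower on day 3 and 4538 on day 6. The 6 Notch genes, with 5723 to 16074 exon bases, were NOTCH2, JAG2, MAML1, MAML3, SPEN and POFUT1. Other genes of such lengths were not low in it, among them ADAM10 (13123 bases, 112% of the other day 0 libraries), RBPJ (6495 bases, 116%) and MIB1 (9576 bases, 97.8%). In that fit SPEN was lower by -0.40 on day 3 and -0.49 on day 6 (SE 0.05 each, adjusted p = 4.01e-05 and 2.46e-06, edgeR), and MAML3 by -0.37 and -0.40 (SE 0.07 each, adjusted p = 0.00061 and 0.000184). With it, day 0 overlapped with both later days in these 2 genes.

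**Figure D3:**
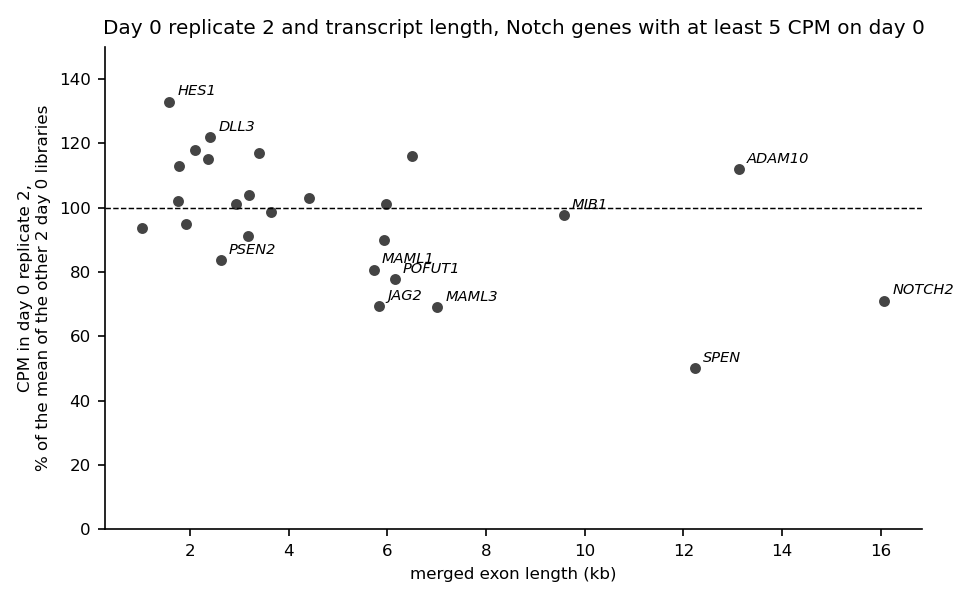
CPM in day 0 replicate 2 as a percentage of the mean of the other 2 day 0 libraries (y axis) against merged exon length in kb (x axis), for Notch genes with at least 5 CPM on day 0 (points). SPEN (50.1%), MAML3 (69%), JAG2 (69.3%) and NOTCH2 (71.1%) lie lowest, and HES1 (133%) and DLL3 (122%) highest.

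Among the target genes, HES1, the best-known Notch target, was little higher on day 3 and several-fold higher on day 6. HES1 had 10.1, 16.1 and 14.2 CPM on day 0, 16.8, 17.4 and 19.1 CPM on day 3, and 39.6, 46.4 and 49.6 CPM on day 6. Day 6 lay far above both other days, whereas the lowest day 3 library was just above the highest of day 0. HES1 (chr3:194136145-194138732, plus strand, shown above with its paired RBPJ letters) rose 3.38-fold on day 6 against day 0 (log2 1.76, SE 0.15, adjusted p = 1.71e-06, edgeR) and 2.54-fold against day 3 (log2 1.35, SE 0.15, adjusted p = 5.71e-05), and both calls held in all 19 alternatives. Its day 3 call (log2 0.41, SE 0.15, adjusted p = 0.0472) was lost without any library other than day 0 replicate 2, and in 11 of 19 alternatives in all (0.00363 to 0.153).

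HES2 had 1.96, 1.96 and 2.21 CPM on day 0, 9.80, 10.7 and 12.5 CPM on day 3, and 15.5, 14.7 and 16.9 CPM on day 6. The days did not overlap, and the larger step lay between day 0 and day 3. HES2, whose window held none of the motifs, rose 5.39-fold on day 3 (log2 2.43, SE 0.13, adjusted p = 4.46e-07, edgeR), 7.70-fold on day 6 (log2 2.94, SE 0.13, adjusted p = 9.20e-09), and further between day 3 and day 6 (0.51, SE 0.11, adjusted p = 0.00668). HEYL had 1.60, 1.79 and 2.12 CPM on day 0, 4.88, 4.82 and 4.87 CPM on day 3, and 6.89, 7.28 and 7.24 CPM on day 6. These days did not overlap either, and HEYL, known as a NOTCH3 target in vascular smooth muscle, rose 2.67-fold on day 3 and 3.91-fold on day 6 (log2 1.41 and 1.97, SE 0.14 each, adjusted p = 1.92e-05 and 3.49e-07, edgeR). HES2 and HEYL, with HES1, were the 3 Notch genes whose day 6 call against day 3 held in every alternative that tested them.

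HES7 had 3.43, 4.64 and 3.34 CPM on day 0, 7.34, 8.03 and 7.92 CPM on day 3, and 11, 9.53 and 10.6 CPM on day 6. Each day lay above the one before. HES7, a component of the somite segmentation clock, rose 2.04-fold and 2.73-fold (log2 1.03 and 1.45, SE 0.14 each, adjusted p = 0.000163 and 3.98e-06, edgeR), and its rise between day 3 and day 6 (0.42, SE 0.13, adjusted p = 0.0449) was lost in 8 of 19 alternatives, among them without any library of day 3 or day 6 (up to 0.158). HEY2 had 0.261, 0.255 and 0.282 CPM on day 0, 0.597, 0.602 and 0.478 CPM on day 3, and 1.24, 0.733 and 1.25 CPM on day 6. Day 6 replicate 2 was the lowest of day 6 but above all of day 3. HEY2, a cardiac and arterial repressor gene, had 45 pooled counts on day 3 and 83 on day 6, against 20 on day 0, ratios of 2.13 (exact 95% Poisson interval 1.23 to 3.81) and 4.11 (2.50 to 7.07). It rose on day 6 (log2 2.01, SE 0.33, adjusted p = 0.000308, edgeR) in all 18 alternatives, while its day 3 call (1.07, SE 0.35, adjusted p = 0.0309) was lost in 8, among them without any library of day 0 or day 3 (up to 0.0923). Its day 6 call against day 3 (0.94, SE 0.29, adjusted p = 0.0484) was lost in 11 of 18, among them without day 0 replicate 1 or 3, any day 3 library, or day 6 replicate 1 or 3 (up to 0.175).

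HEY1 had 0.882, 1.62 and 0.987 CPM on day 0, 1.75, 1.81 and 1.35 CPM on day 3, and 2.32, 2.07 and 2.07 CPM on day 6. Day 6 lay above the other days, and day 0 replicate 2 was the highest of day 0. HEY1 rose on day 6 (1.87-fold, log2 0.90, SE 0.25, adjusted p = 0.00972, edgeR) and did not pass on day 3 (0.51, SE 0.26, adjusted p = 0.134), where it was called without day 0 replicate 2 (0.0191). HES4 had 10.5, 9.57 and 9.92 CPM on day 0, 10.8, 14.2 and 15.4 CPM on day 3, and 12.4, 11.6 and 12.7 CPM on day 6. Every later library lay above day 0, day 3 replicate 1 narrowly. HES4 passed on day 3 but not on day 6 (log2 0.42, SE 0.12, adjusted p = 0.0173, edgeR, and 0.29, SE 0.12, adjusted p = 0.0694 on day 6), and the day 3 call was lost without day 3 replicate 2 or 3 (0.0684 and 0.0911) and with trends removed (0.438), while the day 6 value passed without day 3 replicate 1 (0.0286).

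HES6 had 55.9, 55.8 and 53.8 CPM on day 0, 50.7, 60.6 and 57.6 CPM on day 3, and 57.1, 49.3 and 59 CPM on day 6. The days overlapped fully. HES6, known in the mouse for promoting rather than blocking neuronal differentiation, did not pass (log2 0.03 on day 3 and -0.00 on day 6, SE 0.09 each, 95% interval on day 6 -0.20 to 0.19), and with GC and length trends removed it was called lower on both days (-0.30 and -0.27). HES5, the neural Notch target, was near the detection limit at 0.141 to 0.431 CPM with 23, 27 and 26 pooled counts on days 0, 3 and 6, a ratio of 1.12 on day 6 against day 0 (exact 95% Poisson interval 0.614 to 2.05). NRARP, which encodes a feedback inhibitor of Notch, rose on day 3 at 16.7, 16.2 and 17 CPM, against 13.7, 14.7 and 12.3 CPM on day 0 (log2 0.30, SE 0.10, adjusted p = 0.0302, edgeR), with no overlap. This call was lost in 7 of 19 alternatives, among them without day 0 replicate 1 or 3 or any day 3 library (up to 0.106). It was also lost with GC and length trends removed (-0.032, adjusted p = 0.762, edgeR). On day 6 NRARP overlapped with day 0 (0.20, SE 0.10, adjusted p = 0.102) but passed without day 0 replicate 2 or day 6 replicate 2 (0.0367 and 0.0403).

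The make-up of the HES and HEY RNA also differed between days. The summed level of these genes was 51.7 to 55.7 CPM per kb on day 0, 58.5 to 68.8 on day 3 and 80.2 to 90.1 on day 6, with no overlap between days. HES6 was the largest on day 0 with 58.7% and still on day 3 with 48.9% and on day 6 with 37.1%. HES1 made up 15.9% on day 0, 17.3% on day 3 and 34.0% on day 6, where it came close to HES6, with 30.5% to 36.7% in single libraries against 34.8% to 39.3%. HES4 made up 18.1%, 19.7% and 14.0%. The per-kb level of HES2 rests on a merged exon length of 5407 bases, longer than that of any other HES or HEY gene.

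**Figure D4:**
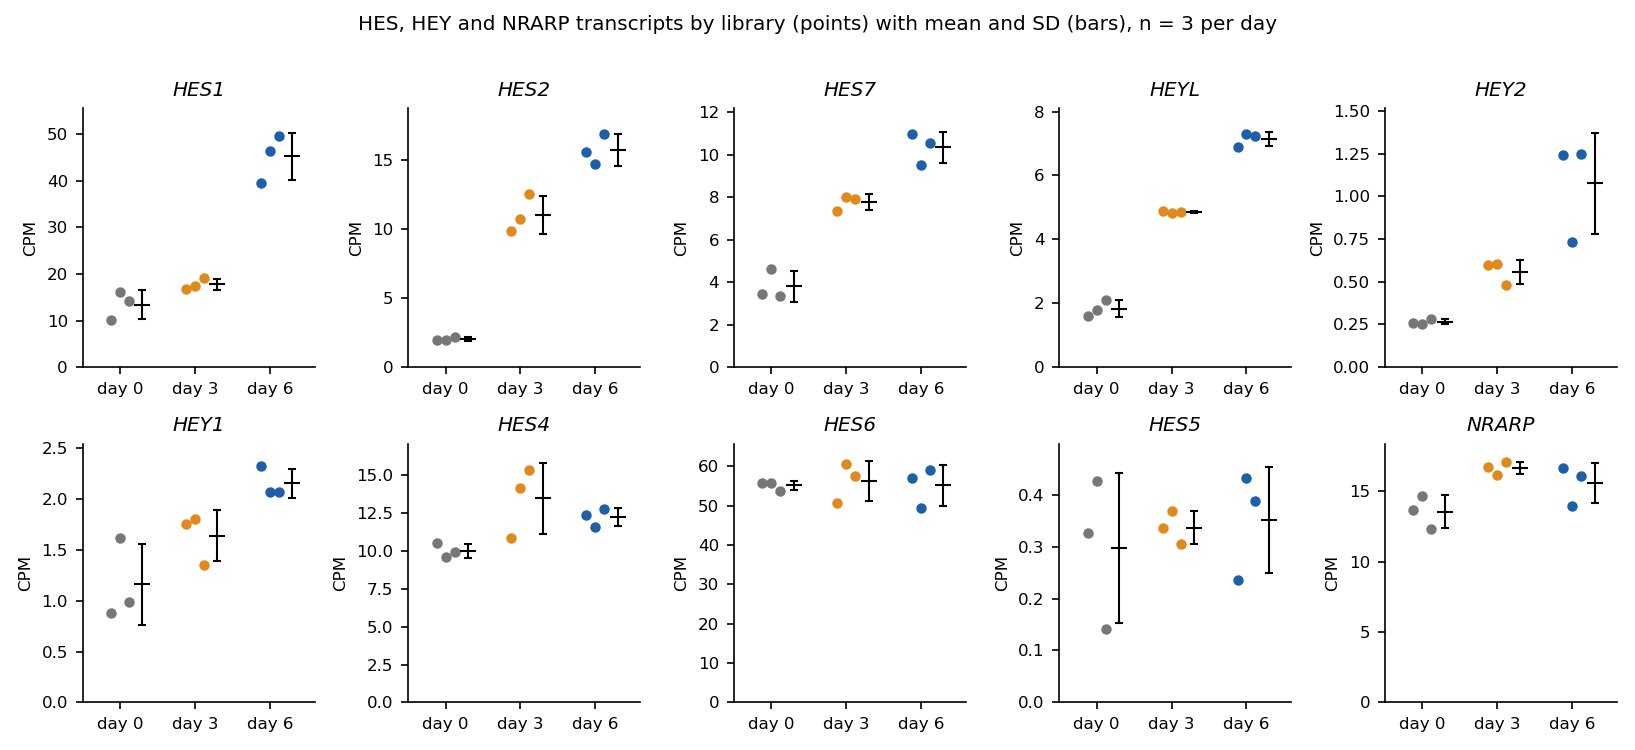
CPM (y axes, from 0) of the 9 HES and HEY genes and NRARP in every library on days 0, 3 and 6 (points), with mean and SD (bars, n = 3 per day). HES1 lies at or below 19.1 CPM up to day 3 and lies between 39.6 and 49.6 CPM on day 6, HES2, HES7 and HEYL step up at each time, and HES5 and HES6 overlap across days.

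Among the glycosyltransferases that tune receptor sensitivity to ligands, the fringe gene MFNG rose throughout. MFNG had 4.70, 5.66 and 4.89 CPM on day 0, 8.16, 7.70 and 6.48 CPM on day 3, and 9.48, 10.00 and 10.7 CPM on day 6. No days overlapped. MFNG rose 1.47-fold on day 3 and 1.98-fold on day 6 (log2 0.56 and 0.98, SE 0.13 and 0.12, adjusted p = 0.00443 and 3.96e-05, edgeR), and between day 3 and day 6 (0.43, SE 0.12, adjusted p = 0.0287), a call lost without day 3 replicate 2 or 3 or any day 6 library (up to 0.136). LFNG had 24.5, 25.2 and 23.9 CPM on day 0, 29.5, 29.1 and 30.4 CPM on day 3, and 26.2, 24.7 and 29.1 CPM on day 6. Day 3 lay above both other days, and day 6 overlapped with day 0. LFNG rose on day 3 (0.27, SE 0.08, adjusted p = 0.0163, edgeR), a call lost without day 0 replicate 3 (0.0502) or day 3 replicate 3 (0.0756) and with trends removed (0.313), under which its direction turned. RFNG had 15.7, 15 and 15.9 CPM on day 0, 16.4, 17.1 and 19.4 CPM on day 3, and 19.5, 16.4 and 21.9 CPM on day 6. Day 6 lay above day 0 and spread the most. RFNG rose on day 6 (0.31, SE 0.11, adjusted p = 0.0323, edgeR). This call was lost in 8 of 19 alternatives, among them without any day 0 library or day 6 replicate 1 or 3 (up to 0.169). It was also lost with trends removed (0.935), under which the direction of RFNG turned. Per kb MFNG made up 13.3%, 16.2% and 20.8% of the fringe level on days 0, 3 and 6. POFUT1, which adds the O-fucose that fringe extends, was not called (log2 -0.07, SE 0.09 on day 6).

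None of the 5 protease genes was called in any comparison by edgeR, DESeq2 or limma-voom, and none reached an unadjusted p under 0.05 in edgeR. They were ADAM10 and ADAM17, which cut the receptor outside the membrane, and PSEN2, NCSTN and APH1A of gamma-secretase. Their log2 changes on day 6 against day 0 ran between -0.13 (ADAM17, 95% interval -0.30 to 0.04) and 0.23 (PSEN2, -0.01 to 0.48). PSEN2 was the exception among alternatives, called higher on day 6 in 4 of 19 (0.0349 to 0.504), among them without day 0 replicate 1.

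Of the trafficking and ubiquitin genes, NUMBL and DTX3 rose. NUMBL had 20.8, 20.9 and 21.7 CPM on day 0, 23.8, 24.8 and 25.7 CPM on day 3, and 29, 25.1 and 29.1 CPM on day 6. All later libraries lay above day 0. NUMBL, a relative of the Notch antagonist NUMB, rose on day 3 (log2 0.23, SE 0.08, adjusted p = 0.0428, edgeR) and day 6 (0.39, SE 0.08, adjusted p = 0.00161). The day 3 call was lost in 13 of 19 alternatives, among them without any day 0 or day 3 library other than day 0 replicate 2 and without day 6 replicate 1 or 3 (up to 0.163), and with trends removed both directions turned. DTX3 had 14, 15.5 and 12.6 CPM on day 0, 17.2, 16.3 and 15.7 CPM on day 3, and 20.1, 17.9 and 19.8 CPM on day 6. Each day lay above the one before. DTX3, a Deltex family gene, rose on day 6 (0.46, SE 0.10, adjusted p = 0.00175, edgeR), and its day 3 value (0.22, SE 0.10, adjusted p = 0.0844) passed without day 0 replicate 2 (0.0172), with library size only (0.0151) and with a minimum of 5 CPM (0.0323). With GC and length trends removed the day 6 call was lost (0.17, adjusted p = 0.122). NUMB (134 to 149 CPM) and the ligand ubiquitin ligase gene MIB1 (118 to 156 CPM) were not called, though MIB1 passed as higher with GC and length trends removed on day 3 (0.23, adjusted p = 0.00437) and day 6 (0.37, adjusted p = 0.000114). On day 6 it also passed with library size only (0.0168), with a minimum of 5 CPM (0.0121) and without day 6 replicate 3 (0.0202).

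Another list holds 51 other Notch pathway genes, of which 46 were tested. On day 3, 16 were higher and 10 lower than on day 0, on day 6 16 were higher and 14 lower, and between day 3 and day 6 6 were higher and 5 lower, with median log2 changes of 0.04, 0.01 and -0.02. Thus 56.5%, 65.2% and 23.9% were called, in both directions, beside the shares of all genes above. Those with the lowest p on day 3 were EGFL7, which encodes a secreted Notch-binding protein (log2 1.22, SE 0.11, adjusted p = 8.11e-06, edgeR), the ligand ubiquitin ligase gene NEURL1B (1.10, SE 0.10, adjusted p = 8.52e-06), and HELT (1.65, SE 0.15, adjusted p = 1.09e-05) and BHLHE41 (1.00, SE 0.10, adjusted p = 1.48e-05), repressor genes related to HES and HEY. On day 6 EGFL7 (1.31, SE 0.11, adjusted p = 1.35e-06, edgeR) and BHLHE41 (1.11, SE 0.10, adjusted p = 2.02e-06) were joined by TLE4 and TLE2, whose products are the Groucho-type co-repressors that HES proteins recruit (2.29, SE 0.20, adjusted p = 1.92e-06, and 0.92, SE 0.08, adjusted p = 1.95e-06).

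Between day 3 and day 6 the lowest p fell to CNTN1, a contactin described as a non-canonical ligand, TLE4, BHLHE40 and L3MBTL3, which encodes a methyl-lysine reader known to bind RBPJ. BHLHE40 had 22.3, 37.2 and 30.5 CPM on day 0, 47.4, 43.3 and 42.7 CPM on day 3, and 78.2, 89.7 and 98.5 CPM on day 6. As in HES1, the day 6 libraries stood far above the others (day 6 against day 3 log2 1.00, SE 0.15, adjusted p = 0.00068, edgeR). TLE4 had 0.915, 1.11 and 1.18 CPM on day 0, 2.27, 2.24 and 1.57 CPM on day 3, and 4.74, 5.56 and 5.25 CPM on day 6. The days did not overlap, and TLE4 rose between day 3 and day 6 (1.34, SE 0.18, adjusted p = 0.000289, edgeR). L3MBTL3 had 45 pooled counts on day 3 and 148 on day 6, against 1 on day 0, ratios of 42.6 (exact 95% Poisson interval 7.26 to 1720) and 147 (25.9 to 5830). CNTN1 rose by 0.87 between day 3 and day 6 (SE 0.08, adjusted p = 1.77e-05, edgeR) and was not called on day 3.

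**Figure D5:**
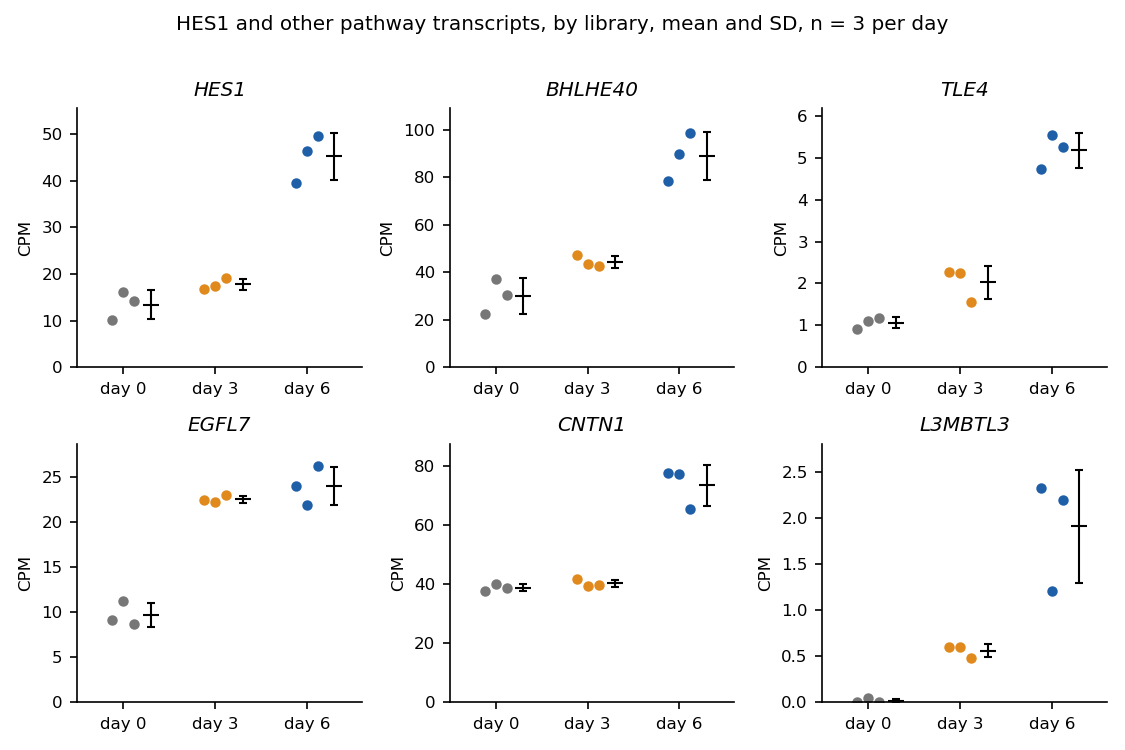
CPM (y axes, from 0) of HES1 and 5 genes of the other pathway list in every library on days 0, 3 and 6 (points), with mean and SD (bars, n = 3 per day). HES1, BHLHE40, TLE4, CNTN1 and L3MBTL3 are highest on day 6, and EGFL7 lies above day 0 in all later libraries.

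DLL4, HEY2, NOTCH4 and HEYL are also known from vessels, so markers of vessel and other cells were read beside them. Of 10 endothelial markers, CLDN5 was at 0 in all libraries, and CDH5 and KDR had at most 1 pooled count a day. TEK, VWF and ESAM rose on both days (3 of 4 tested), and the summed level of the list was 3.39 to 4.59 CPM on day 0, 7.0 to 8.28 on day 3 and 11.8 to 16.1 on day 6. TEK supplied most of the day 6 sum, with 7.57 to 10.3 CPM. PECAM1 (0.174 to 0.708 CPM) and EMCN (0.174 to 0.517 CPM) stayed low on all days. Beside this and the lists below, 22.5% of all genes tested were higher on day 3 and 28.9% on day 6. Among those with a mean under 5 CPM, these shares were 30.4% and 45.1%. Of 10 mural and fibroblast markers, 4 of 7 tested rose on both days, among them COL1A1 (log2 4.29, SE 0.21, adjusted p = 2.05e-08 on day 6, edgeR) and ACTA2, with sums of 62.1 to 66.1, 85.6 to 90.8 and 81.6 to 91.2 CPM on days 0, 3 and 6. PDGFRA supplied most of these sums, with 54.5 to 58.6 CPM on day 0, 73 to 79.1 on day 3 and 61.5 to 69.1 on day 6. RGS5, MYH11 and COL1A2 were not called on day 3 (log2 -0.01, -0.65 and 0.32, SE 0.15, 0.34 and 0.58). CSPG4, DCN and LUM did not pass the filter and stayed at or below 0.636 CPM. Of 8 leukocyte markers, CD3D and MS4A1 were at 0 and PTPRC at 0.268 to 0.638 CPM, while LYZ alone supplied most of the sum (489 to 643 CPM on day 0, 348 to 364 on day 3, 327 to 330 on day 6) and was lower on both days. Of the 5 tested, 1 was higher and 1 lower on day 3, and 2 were higher and 1 lower on day 6. The higher one on day 3 was ITGAM (log2 2.35, SE 0.29, adjusted p = 9.74e-05, edgeR), from a mean of 0.43 CPM on day 0 to 2.27 CPM. Of 8 squamous markers KRT14 had at most 2 pooled counts a day, and of 5 tested, 4 were higher and KRT5 was lower on day 3 (log2 -1.36, SE 0.29, adjusted p = 0.00362, edgeR), while all 5 were higher on day 6. The part of these markers' changes in the Notch results was not tested.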

How the data were processed

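Poly-A RNA of TYUC-1 cells was sequenced in 9 libraries, 3 each on days 0, 3 and 6. Per the submitters' processing notes the tools were bcl2fastq 2.19, kallisto 0.44.0 and DESeq2, with builds GRCh38, GRCm38 and hg38, whose roles are not given there. The deposited table holds the authors' estimated counts per gene symbol, unscaled whole numbers per the file itself. How transcripts were summed to genes, and whether strand was used, is not given in the sources used here.

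The estimated counts were rounded and tested with the quasi-likelihood test of edgeR 4.0.16 (R 4.3.3, TMM scaling, filterByExpr with a minimum count of 10). All 9 libraries entered 1 fit, and p-values were adjusted over 15345 genes at a threshold of 0.05. The procedure was tested on simulated data for day 6 against day 0. It recovered 124 of 200 genes changed 1.5-fold (62%) and 179 of 200 changed 2-fold (89.5%), with 13 false calls in each. A gene not called may therefore still have changed by 1.5-fold or less. Depth ranged from 21638874 to 31235055 counts, and Poisson intervals and floors cover counting error only. Coordinates and merged exon lengths come from GENCODE release 29 (GRCh38), matched for 33512 symbols, and promoters from RefSeq (GRCh38.p14), with entries for 33 of the 39 genes (not DLL1, DLL3, DTX1, DTX3, HEY1 and MFNG). Protein motifs were not analysed here. Results on a further gene list are not reported here.

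The 39 genes, the other lists and the tests were chosen with earlier results of these data known, and the p-values measure the spread between the libraries of 1 cell line. All 39 genes are accounted for by role. Values per library are given for receptors, ligands, HES and HEY genes, and for other genes past the threshold that reach 5 CPM in a library or change 2-fold. Of the other pathway genes, up to 4 per comparison with the lowest p are named. The alternatives were other scalings (median-ratio size factors, library size only, and TMM without the 20 most abundant genes), no filter, a minimum mean of 5 CPM, limma-voom (limma 3.58.1), DESeq2 1.42.0, a separate fit for each pair of days, a block for the replicate number, and each library left out. Removal of each library's trend with GC content and length was added after seeing the data. It was fitted across all days, so it can also remove day differences that go with GC content or length.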

Additional observations from a re-analysis of the deposited data

Results flagged for a closer look

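The day 6 effect differed from the day 3 effect, by edgeR's test of day 6 against day 3, in 8 Notch genes. The day 6 effect minus the day 3 effect, both against day 0, was 1.35 in HES1, 0.51 in HES2, 0.42 in HES7, 0.94 in HEY2 and 0.55 in HEYL on the log2 scale. It was 0.92 in MAML2, 0.43 in MFNG and -0.37 in NOTCH2. In all 8 genes the 3 libraries of day 6 lay on 1 side of the 3 libraries of day 3. HES1, HES2 and HEYL kept this call in every alternative that tested them, and the other 5 genes lost it in 5 to 11 of them.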

How the results depend on the processing

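Over the 3 comparisons, 1956 gene-level results of the Notch genes under an alternative kept their side of the threshold. Of these, 103 were called in neither fit and changed sign, 19 of them with GC and length trends removed. A further 100 lost the threshold, 52 gained it, and 10 that were called in at least 1 of the fits turned direction. In every alternative that tested them, 8 of 15 calls held on day 3 (NOTCH3, DLL4, DLK2, MAML2, HES2, HES7, HEYL, MFNG), 11 of 18 on day 6 (these 8 with HES1, HEY1 and HEY2) and 3 of 8 between day 3 and day 6 (HES1, HES2, HEYL).

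Leaving out each library in turn gave 9 to 22 Notch calls on day 3 (9 to 16 higher, 0 to 6 lower, 4653 to 7289 of all genes). It gave 16 to 22 on day 6 (14 to 17 higher, 1 to 6 lower, 7268 to 9496 of all genes) and 3 to 10 between day 3 and day 6 (3 to 8 higher, 0 to 2 lower, 1606 to 4681 of all genes). The highest totals came without day 0 replicate 2.

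With GC and length trends removed, lower calls were 5 on day 3, 7 on day 6 and 3 between day 3 and day 6 (0, 2 and 1 as reported), with 3857 of all genes called in the last. Among values called with or without this removal, DLL1 turned to -0.23, HES6 to -0.30, NRARP to -0.032, LFNG to -0.079 and NUMBL to -0.17 (log2) on day 3. On day 6 DLL1 turned to -0.20, RBPJ to 0.24, LFNG to -0.28, RFNG to -0.009 and NUMBL to -0.068. Scaling by library size only gave 0 lower calls on day 6 and 0 between day 3 and day 6. A mean of at least 5 CPM, which tested 28 Notch genes, gave 1 lower call on day 6, and between day 3 and day 6 4 calls, 4 higher and 0 lower, with 1248 of all genes. The fit of only the days compared gave 2 lower calls between day 3 and day 6 and 4331 of all genes. For the other scalings and settings the cause was not tested.

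With the replicate number as a block, 14, 20 and 6 Notch genes were called (15, 18 and 8 without it) and 6113, 8305 and 2293 of all genes. Same-numbered libraries did not deviate together (correlations -0.077 to 0.127 over 9 pairs, against -0.083 to 0.110 over 18 others), so the numbers were not read as pairs. Depth limits DLL4, HES5 and HEY2, which had under 30 pooled counts on day 0.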
